A study of Homo sapiens with 12 samples.

Results

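The proteasome genes described here are the 48 human genes whose symbols run PSMA, PSMB, PSMC, PSMD, PSME, PSMF or PSMG and end in a number, out of 60314 named genes in the table of each cell line. The rule for membership uses the symbol and no measured value, and the genes comprise 7 alpha and 7 constitutive beta subunits of the 20S core, 3 immunoproteasome subunits, 2 tissue-restricted core subunits, 17 subunits of the 19S cap, 3 chaperones of the 19S base, 4 activators, 1 inhibitor and 4 chaperones of the 20S core. RNA sequencing was run on 22RV1 and C4-2B, both castration-resistant prostate cancer lines and both labelled wild type, with 3 libraries for each of the 4 groups, described by the series text as biological triplicates. The tested cells of each line received the oligonucleotide 56-mer, an aptamer (a folded nucleic acid designed to bind a target), at 50 nM together with 2 mM L-glutamine for 48 h, and the controls received 2 mM L-glutamine for 48 h without it. All groups were kept in glutamine-free RPMI-1640 with serum before these additions. Nothing in the labels gives a culture day, a pairing or a control oligonucleotide, so the p-values measure the spread between these libraries.

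The 26S proteasome degrades proteins that carry ubiquitin chains. Its 20S core is a barrel of outer alpha rings, which gate the entry, and inner beta rings, in which PSMB5, PSMB6 and PSMB7 carry the active sites. PSMB8, PSMB9 and PSMB10 replace these in the immunoproteasome of leukocytes and interferon-treated cells. The 19S cap holds a base of ATPases (PSMC genes) that unfold substrates, ubiquitin receptors such as PSMD4, and a lid with the deubiquitinase PSMD14. Dedicated chaperones build the core and the base, alternative activators (PSME genes) can take the place of the 19S cap, and the transcription factor NFE2L1 raises the subunit genes together through antioxidant response elements when proteasome activity is short.

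The promoter windows of 4 members are given because these members carry the results described further on: PSMC5 and PSMB3 are among the 3 members with the smallest unadjusted p in C4-2B, PSMB10 is among the 3 in 22RV1, and PSME2 holds both response element cores. Each is the 250 bases before the RefSeq start of the gene (GRCh38.p14), written 5′ to 3′ on the strand of the gene, with matches to the antioxidant response element core (TGACNNNGC) or the interferon-stimulated response element core (TTTC and, after any 2 bases, TTTC again) on either strand in capitals. PSMB3 lies at chr17:38752491-38752740 on the plus strand, PSMC5 at chr17:63827181-63827430 on the plus strand, PSMB10 at chr16:67936851-67937100 on the minus strand and PSME2 at chr14:24146611-24146860 on the minus strand.
PSMB3: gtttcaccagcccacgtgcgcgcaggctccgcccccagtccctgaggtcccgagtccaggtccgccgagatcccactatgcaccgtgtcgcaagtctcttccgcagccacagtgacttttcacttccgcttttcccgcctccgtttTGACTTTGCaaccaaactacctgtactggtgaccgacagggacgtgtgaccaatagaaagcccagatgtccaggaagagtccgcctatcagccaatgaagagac
PSMC5: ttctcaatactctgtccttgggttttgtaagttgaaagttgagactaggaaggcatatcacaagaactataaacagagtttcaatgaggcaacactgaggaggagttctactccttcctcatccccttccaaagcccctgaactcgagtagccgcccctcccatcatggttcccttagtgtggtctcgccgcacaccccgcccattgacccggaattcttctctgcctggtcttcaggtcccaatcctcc
PSMB10: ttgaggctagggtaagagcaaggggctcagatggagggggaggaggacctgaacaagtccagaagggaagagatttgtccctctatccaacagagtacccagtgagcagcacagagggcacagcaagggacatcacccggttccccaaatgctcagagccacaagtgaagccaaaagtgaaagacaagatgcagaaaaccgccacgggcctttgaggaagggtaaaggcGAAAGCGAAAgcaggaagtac
PSME2: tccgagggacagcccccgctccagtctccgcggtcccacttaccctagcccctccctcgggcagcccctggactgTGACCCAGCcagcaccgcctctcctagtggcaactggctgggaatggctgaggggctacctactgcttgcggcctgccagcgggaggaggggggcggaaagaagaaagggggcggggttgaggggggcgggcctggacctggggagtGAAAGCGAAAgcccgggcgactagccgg
RefSeq windows of 300 bases, which also hold the 50 bases after the start, matched 42 of the 48 members; PSMA7, PSMB1, PSMB6, PSMB7, PSMD4 and PSMG3 were not matched. The antioxidant response element core occurred in 13 of the 42 windows (31.0%), against 13.6% of all 27305 windows. The interferon-stimulated core occurred in 6 of 42 (14.3%), against 3.65% of all windows, and the CCAAT box in 19 of 42 (45.2%), against 35.7%. In PSME2 the antioxidant and interferon-stimulated cores lie 175 and 28 bases before the start and do not overlap. The window of PSME1 also holds both, the antioxidant core 86 bases before the start and the interferon-stimulated core after it, at position 6. A match describes these letters and does not show that a factor binds there.

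Whole-series values that bear on these genes were as follows. Recovered reads, that is, the read counts worked out from the authors' normalized values, numbered 8847368 to 13740386 per library. The 8 luminal prostate markers summed to 26195 to 27970 normalized read counts in 22RV1 and 38330 to 42088 in C4-2B. The 3 basal markers summed to at most 10.7. Each of the 8 luminal markers had a normalized count of 10 or above in 3 or more of the 6 libraries of each line. The 9 leukocyte markers summed to 34.8 to 99.7 in 22RV1 and 91.5 to 236 in C4-2B, of which CD68 was the highest in C4-2B, and PTPRC, the pan-leukocyte marker, had at most 1.77 in any library. The 7 endothelial and fibroblast markers summed to more, 332 to 431 in 22RV1 and 405 to 647 in C4-2B.

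Of the 48 genes, 46 passed the filter (3 or more of the 6 libraries at a normalized count of 10 or above), and they were the same 46 in both lines. The other two were PSMA8, the testis alpha subunit, and PSMB11, the catalytic subunit of the thymus, which had 0 reads in every one of the 12 libraries. A count of 0 allows up to 3 reads, which is 0.218 to 0.339 reads per 1000000 recovered reads (RPM) depending on the library (counting error only).

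**Figure D1:**
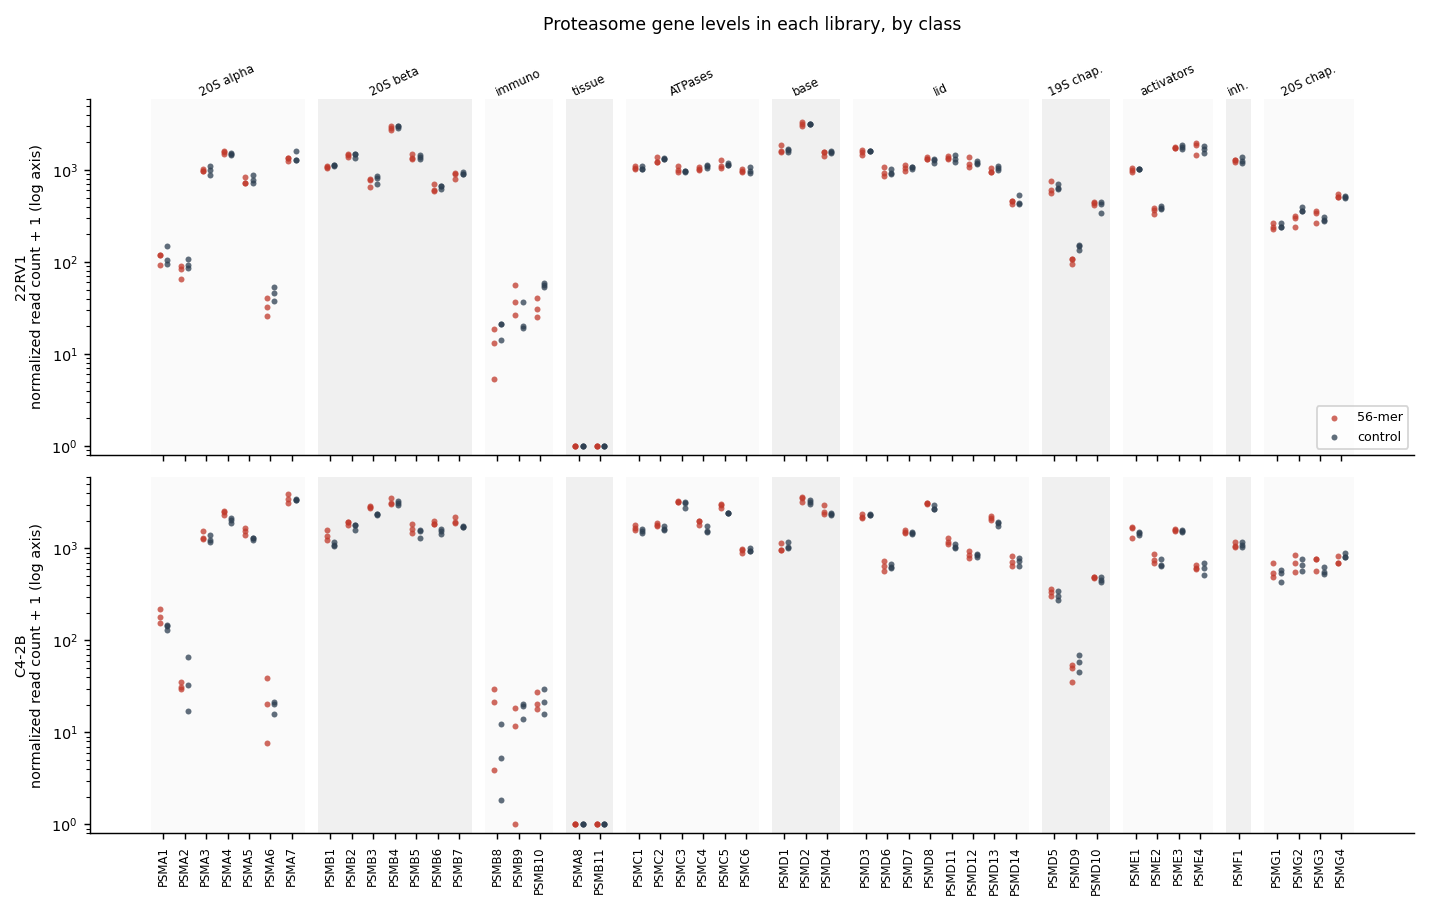
Normalized read count plus 1 (log axis) of each of the 48 proteasome genes in each library of 22RV1 (upper panel) and C4-2B (lower panel), with 56-mer libraries in red to the left of controls in dark blue and genes grouped by class. Most subunits have control means between 246 and 3383, whereas PSMA1, PSMA2, PSMA6, PSMB8, PSMB9, PSMB10 and PSMD9 lie lower and PSMA8 and PSMB11 had no reads.

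Control levels between genes are given per kilobase of annotated exon and per 1000000 recovered reads. Those of the 20S core, without the 3 genes PSMA1, PSMA2 and PSMA6 treated in the next paragraph, ran over a 9.86-fold range in 22RV1 and an 8.95-fold range in C4-2B. In 22RV1 controls PSMB4, a structural beta subunit, was the highest of them at 114 ± 2.64 (SD, n = 3) and PSMA5 the lowest at 11.6 ± 1.11. In C4-2B controls PSMB3, another structural beta subunit, was highest at 172 ± 3.49 and PSMA5 again lowest at 19.2 ± 0.682. By mean transcript length the ranges were 4.89-fold and 6.35-fold, with PSMB4 and PSMA5 again at the ends in 22RV1, but with PSMA7 highest and PSMB2 lowest in C4-2B. The alpha subunit PSMA7 was the highest of its ring in both lines, at 66.3 in 22RV1 and 166 in C4-2B.

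Of the 19S subunits, PSMD2, a ubiquitin receptor of the base, had the highest per-length control level in 22RV1 (48.3) and the ATPase PSMC3 in C4-2B (114). Lowest were the deubiquitinase PSMD14 in 22RV1 (5.07) and the lid subunit PSMD6 in C4-2B (6.04), next to PSMD14 at 8.02. Divided by mean transcript length instead of exon length, PSMD14 was the lowest in both lines. Of the activators, PSME1 was highest in both lines, at 48.1 in 22RV1 and 70.1 in C4-2B, although PSME3 was the highest in 22RV1 by transcript length, while PSME2, its partner in the interferon-inducible ring, was lowest in 22RV1 (9.03) and PSME4, which caps the core in the nucleus, was lowest in C4-2B (5.06). The 20S chaperones lay between 4.10 (PSMG4) and 12.4 (PSMG3) in 22RV1 and between 6.85 (PSMG4) and 24.8 (PSMG3) in C4-2B, and their order changed when mean transcript length was used. PSMF1, the inhibitor, was at 20.2 in 22RV1 and 17.6 in C4-2B.

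Of the members, 5 had far fewer reads than most others. PSMA1, PSMA2, PSMA6, PSMB10 and PSMD9 averaged between 44.9 and 144 normalized read counts in 22RV1 controls and between 18.2 and 140 in C4-2B controls. The other members with reads, apart from PSMB8 and PSMB9, averaged 246 to 3154 in 22RV1 and 305 to 3383 in C4-2B. In the GENCODE 29 annotation these 5 are also the members of which over 50% of the coding bases lie in exons of another gene on the same strand.

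**Figure D2:**
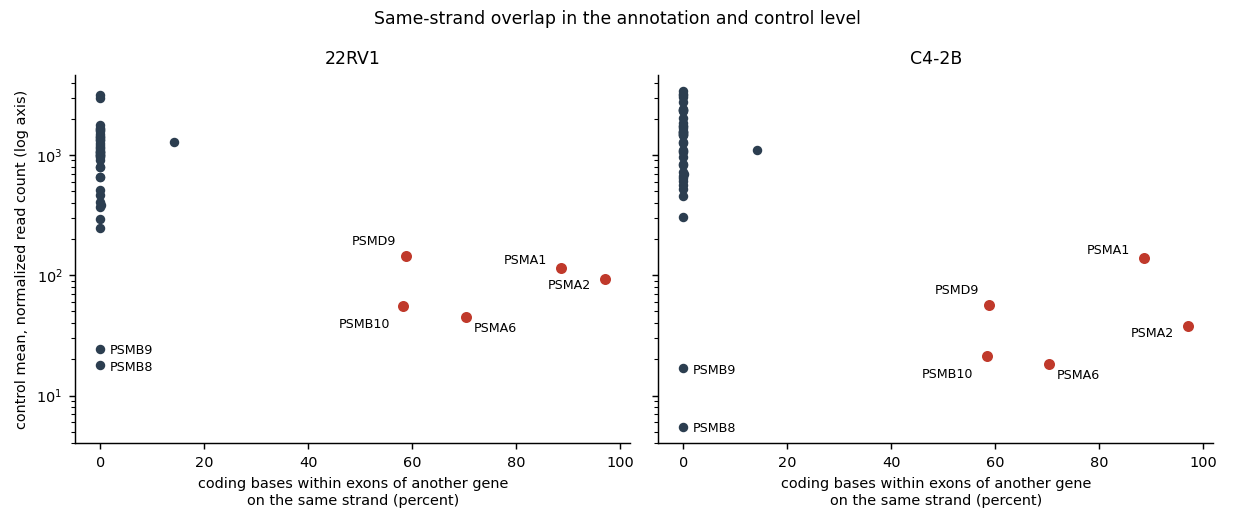
Control mean of each proteasome gene with reads (normalized read count, log axis) against the percent of its coding bases that lie in exons of another gene on the same strand in GENCODE 29, in 22RV1 (left) and C4-2B (right). The 5 labelled genes in red have an overlap of 58.3% to 97.1% and control means of 144 or less, and the next highest overlap is 14.2% (PSMF1).

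The shared part was 97.1% for PSMA2 (with AC010132.3), 88.6% for PSMA1 (AC018523.2), 70.4% for PSMA6 (AL121594.1), 58.7% for PSMD9 (AC069503.2) and 58.3% for PSMB10 (AC040162.1). How reads that fall in 2 genes were counted, and whether strand was used, is not given in the sources used here, and the part of the overlap in these low values was not tested. The values of these 5 genes are therefore uncertain, and the levels and changes given for them hold for reads that the authors assigned to the symbol. On the opposite strand, 47.7% of the coding bases of PSMC1 lie in exons of NRDE2 and 14% of those of PSMB8 in PSMB8-AS1, an antisense RNA that was counted at 70.7 to 109 in 22RV1 and 103 to 157 in C4-2B, above PSMB8 itself. The 32 PSM pseudogenes of the tables together held 60.7 to 97.5 normalized read counts per library in 22RV1 and 15.6 to 43.9 in C4-2B.

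The next comparison sets the control level of each gene in 22RV1 against that in C4-2B, in RPM. It is a description: the table of each line was normalized separately and no test was run. Genes with any reads numbered 28342 to 31010 per library in 22RV1 and 20779 to 22686 in C4-2B. The part of this in the shares of reads was not tested. Most subunits took a smaller share of the reads in 22RV1. The median ratio over the 46 members was 0.770, with 31 lower and 15 higher in 22RV1, whereas the median over 15527 genes with reads in both lines was 1.23. In 14 members the 3 control libraries of one line all lay above those of the other with a ratio of at least 2, which is a smaller share than the 43.6% of all genes that did so. Of these, 7 were higher in 22RV1, where 29% of all genes were, and 7 were lower, where 14.7% of all genes were.

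**Figure D3:**
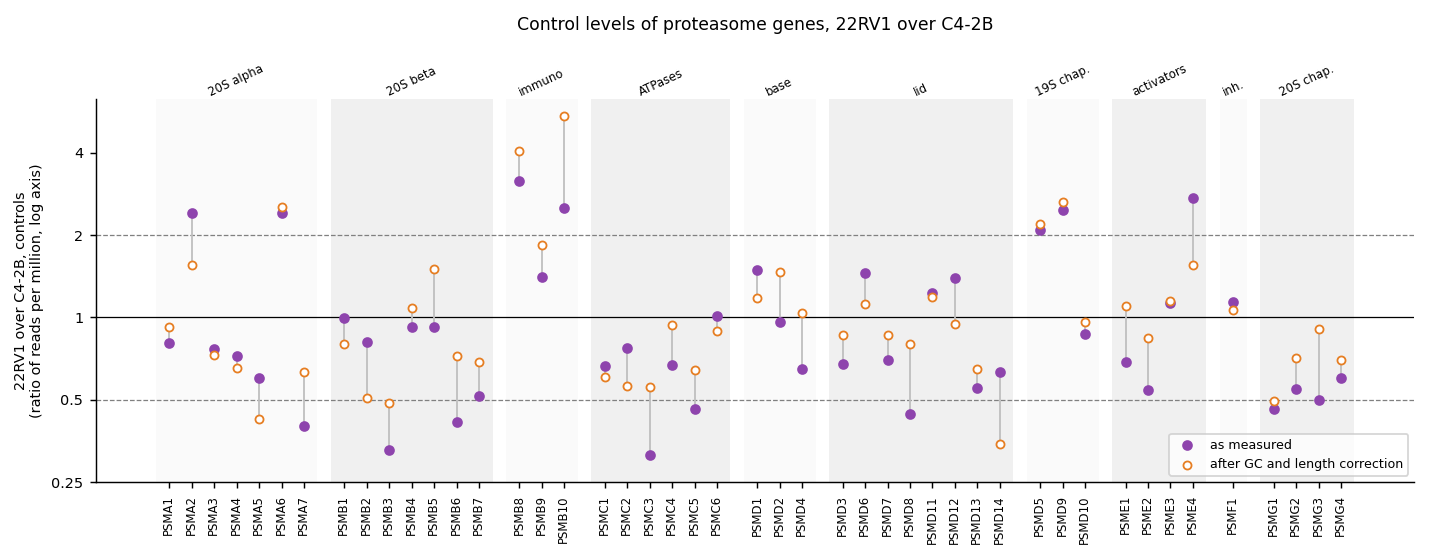
Ratio of the mean control level in 22RV1 to that in C4-2B (RPM, log axis) for the 46 members with reads, by class, as measured (filled purple) and after a lowess correction for GC content and transcript length (open orange), with dashed lines at ratios of 0.5 and 2. All 4 20S chaperones and all 7 constitutive beta subunits lie below 1 as measured, with PSMB1 at 0.995. After the correction PSMB4 (1.08) and PSMB5 (1.51) lie above 1. The 3 immunoproteasome subunits lie above 1 before and after the correction. The control libraries of the 2 lines overlap for PSMB1, PSMB5 and PSMB9.

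The members lower in 22RV1 were 3 core subunits, 2 ATPases, 1 lid subunit and 1 chaperone. PSMC3 had 81.5, 82.1 and 80.2 RPM in 22RV1 controls, against 267, 271 and 239 in C4-2B controls, a ratio of 0.314. PSMB3 had 68.7, 58.7 and 72.1 in 22RV1, against 198, 204 and 206 in C4-2B, a ratio of 0.328. The libraries of the lines were far apart for both genes. PSMA7 had 107, 107 and 133 in 22RV1, against 292, 287 and 292 in C4-2B (ratio 0.400), and PSMB6 had 51.9, 55.9 and 55.9, against 131, 123 and 140 (0.415). The lid subunit PSMD8 had 111, 107 and 99.4 in 22RV1, against 250.1, 232 and 233 in C4-2B (0.443). The lowest C4-2B library of each lay far above the highest of 22RV1. The 20S chaperone PSMG1 had 19.9, 21.8 and 19.9 in 22RV1, against 49.6, 36.8 and 47.0 in C4-2B (0.462), and the ATPase PSMC5 had 95.4, 93.9 and 101 against 205, 209 and 212 (0.463).

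The members higher in 22RV1 were PSMB8 (ratio 3.16), PSME4 (2.72), PSMB10 (2.52), PSMD9 (2.46), PSMA2 (2.41), PSMA6 (2.40) and PSMD5 (2.08). PSME4 had 142, 151 and 129 RPM in 22RV1 controls, against 43.2, 59.2 and 53.1 in C4-2B controls. PSMD5, a chaperone that holds ATPases of the 19S base, had 52.9, 58.0 and 52.3 in 22RV1, against 23.0, 29.1 and 26.3 in C4-2B. Of these 7, PSMA2, PSMA6, PSMB10 and PSMD9 are among the 5 overlapped genes, and PSMB8 averaged 17.8 normalized read counts in 22RV1 controls and 5.51 in C4-2B controls. PSMA2 had 8.85, 7.60 and 7.07 RPM in 22RV1, against 1.37, 2.73 and 5.65 in C4-2B, and PSMA6 had 3.09, 4.39 and 3.75 against 1.73, 1.27 and 1.69. PSMD9 had 12.3, 11.1 and 12.7 in 22RV1, against 4.92, 3.81 and 5.94 in C4-2B. PSMB10 had 4.43, 4.56 and 4.86 in 22RV1, against 1.73, 1.27 and 2.5 in C4-2B, and PSMB8 had 1.67, 1.10 and 1.69 against 0.364, 0.976 and 0.0734. These are few reads, and the C4-2B libraries of PSMA2 and PSMB8 are widely spread.

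The ratio moved with the composition of the genes. Across the 46 members it had a Spearman correlation of −0.344 with GC content and 0.442 with mean transcript length, and across 14969 genes of −0.301 and 0.320; the points share 6 control libraries, and no p is given. After a lowess correction for both, a setting chosen after seeing the data, the median ratio of the members was 0.898. Of the members 28 were lower and 18 higher in 22RV1, and the median over the 15527 genes tested in both lines was 1.22. Past a ratio of 2 without overlap were 9 members, 5 higher and 4 lower, against 36.7% of all genes. The 5 higher were PSMB8, PSMB10, PSMA6, PSMD5 and PSMD9. The 4 lower were PSMB3 (0.488) and PSMG1 (0.494), and with them PSMA5 (0.425) and PSMD14 (0.346), which had not been past the limit before. PSMC3 (0.558), PSMA7 (0.634), PSMC5 (0.644), PSMB6 (0.726), PSMD8 (0.802), PSME4 (1.55) and PSMA2 (1.55) were no longer past it.

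The comparison of 56-mer with control asks which transcripts differ when the aptamer is added to cells supplied with glutamine. In C4-2B 38 of the 46 members had a higher mean with 56-mer and 8 a lower one, with a median log2 change of 0.111, but no member passed the test. The limma test on log2 of the normalized count plus 1, adjusted over the 16657 genes tested, called 0 of 46, where it called 0.066% of all genes. At an unadjusted p under 0.05 there were 10 members, all higher, against 4.89% of all genes higher at that p, and edgeR, DESeq2 and limma-voom on the recovered reads gave 0 called and 10 under 0.05 each. A higher mean was found in 48.3% of all genes, whose median change was −0.011.

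In 12 members all 3 C4-2B libraries with 56-mer lay above all 3 controls, and in none below, where 7.59% of all genes had no overlap in the higher and 7.08% in the lower direction. These 12 were 3 alpha subunits (PSMA1, PSMA4, PSMA5), 4 constitutive beta subunits (PSMB1, PSMB3, PSMB6, PSMB7), 3 ATPases (PSMC3, PSMC4, PSMC5) and 2 lid subunits (PSMD8, PSMD13). They are listed for this property on the authors' scale, after their values were seen. In RPM the PSMC3 groups overlapped, at 263, 276 and 268 with 56-mer against 267, 271 and 239 in controls. The others of the 12 did not overlap in RPM either. No immunoproteasome subunit, activator, chaperone or non-ATPase of the base with a PSM symbol was among the 12. These classes hold 3 or 4 members each.

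**Figure D4:**
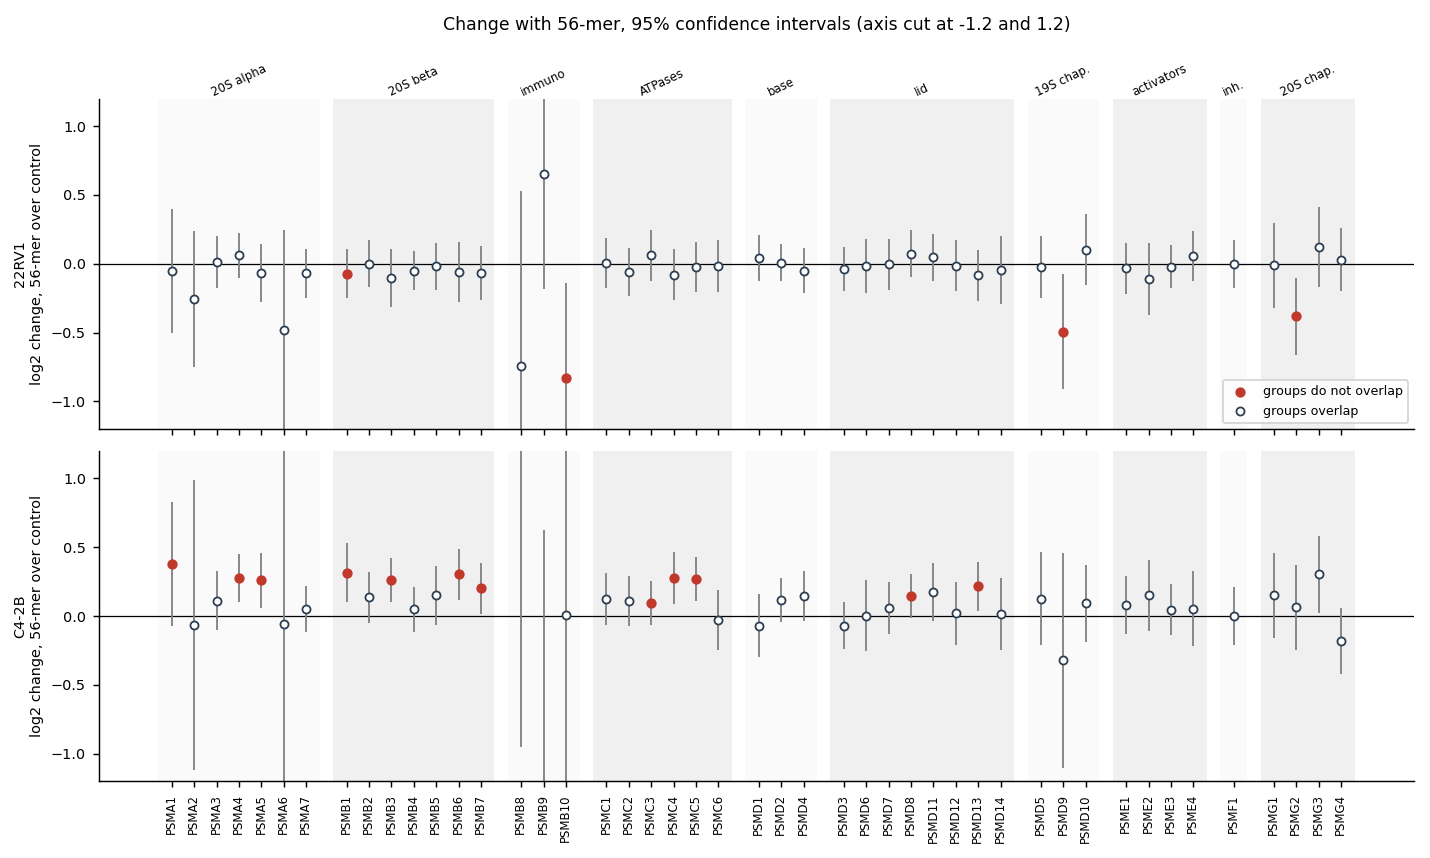
Log2 change with 56-mer relative to control for the 46 tested members, by class, in 22RV1 (upper panel) and C4-2B (lower panel). Bars are 95% confidence intervals from the limma fit. The axis ends at −1.2 and 1.2, so the C4-2B points of PSMB8 (1.44) and PSMB9 (−1.55) are not shown. Some wide intervals of low genes also run off it. Filled red points mark genes whose 3 libraries per group do not overlap, 4 lower ones in 22RV1 and 12 higher ones in C4-2B, and no gene passed the adjusted threshold.

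The constitutive beta ring had the highest class median in C4-2B, 0.201, with 7 of 7 subunits higher and 4 of them at an unadjusted p under 0.05. PSMB3 had 2850, 2786 and 2887 normalized read counts with 56-mer, against 2332, 2387 and 2382 in controls. These groups did not overlap, and the log2 change was 0.26 ± 0.078 (SE; limma adjusted p = 0.334). PSMB6, the caspase-like catalytic subunit, had 1983, 1824 and 1862 with 56-mer, against 1543, 1436 and 1618 in controls, a log2 change of 0.30 ± 0.090 (adjusted p = 0.334). PSMB1, a structural subunit, had 1575, 1353 and 1228 with 56-mer, against 1071, 1088 and 1161 in controls, with 56-mer 1 highest and a log2 change of 0.32 ± 0.11 (adjusted p = 0.399).

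The remaining catalytic subunits were nearer to their controls. PSMB7, the trypsin-like subunit, had 2187, 1879 and 1914 with 56-mer, against 1757, 1730 and 1704 in controls, a log2 change of 0.20 with a 95% interval of 0.018 to 0.38 (adjusted p = 0.521). PSMB5, the chymotrypsin-like subunit and the target of proteasome inhibitor drugs, had 1844, 1630 and 1460 with 56-mer, against 1551, 1304 and 1589 in controls. The PSMB5 groups overlapped, with a log2 change of 0.15 and an interval of −0.063 to 0.36. The alpha ring had a median of 0.113, with 5 of 7 higher and 2 at an unadjusted p under 0.05.

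The ATPases had a median of 0.118, with 5 of 6 higher. PSMC5 had the smallest unadjusted p of the members in C4-2B (0.0022). Its normalized read counts were 3076, 2960 and 2768 with 56-mer, against 2413, 2440 and 2443 in controls, a log2 change of 0.27 with a 95% interval of 0.11 to 0.43 (adjusted p = 0.333). PSMC4 had 1990, 1811 and 1997 with 56-mer, against 1738, 1515 and 1537 in controls, without overlap and with a log2 change of 0.28 (adjusted p = 0.397). The non-ATPases of the base had a median of 0.116, and the ubiquitin receptor PSMD4 had 2956, 2364 and 2515 with 56-mer, against 2290, 2401 and 2355 in controls, so the groups overlapped and the change of 0.15 rested mostly on 56-mer 1. The lid had a median of 0.038 although 7 of 8 were higher. Its deubiquitinase PSMD14 had 711, 827 and 645 with 56-mer, against 790, 637 and 732 in controls, with a log2 change of 0.014 and an interval of −0.25 to 0.28.

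The activators had a median of 0.069 in C4-2B, with 4 of 4 higher, and the 20S chaperones one of 0.107, with 3 of 4 higher; none of these genes was without overlap. PSME1 had 1691, 1651 and 1309 with 56-mer, against 1500, 1402 and 1464 in controls (log2 change 0.083, interval −0.13 to 0.29). PSME2 had 875, 688 and 749 with 56-mer, against 657, 773 and 647 in controls (0.15, −0.11 to 0.41). Both groups overlapped, as did those of PSME3, the nuclear activator, with 1587, 1645 and 1552 against 1541, 1500 and 1592 (0.046, −0.14 to 0.23), and of PSME4, with 662, 605 and 601 against 508, 691 and 613 (0.054, −0.22 to 0.33). PSMF1 had 1173, 1061 and 1041 with 56-mer, against 1161, 1028 and 1081 in controls, a log2 change of 0.0019 with an interval of −0.21 to 0.22. Of the 20S chaperones PSMG3 had a log2 change of 0.30 (unadjusted p = 0.0335, adjusted p = 0.525) and PSMG4 one of −0.18 (adjusted p = 0.683), and the 3 base chaperones had a median of 0.094.

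The 3 libraries with 56-mer differed from each other in C4-2B. Relative to the mean of the line, the members had a median log2 deviation of 0.139, 0.045 and −0.0084 in the 3 libraries with 56-mer, against −0.0021, −0.070 and −0.061 in controls, where the median over all tested genes was 0.012 to 0.018 in each of these libraries. The highest was 56-mer 1 and the lowest 56-mer library lay just under the highest control. Without 56-mer 1 the median change of the members was 0.055 in place of 0.111, and 10 members still had an unadjusted p under 0.05. Across the 46 members the C4-2B change had a Spearman correlation of −0.331 with mean transcript length and 0.192 with GC content (across 15974 genes −0.146 and 0.160). After each library was corrected for both, the deviations were 0.108, 0.058 and 0.031 with 56-mer, against −0.012, −0.063 and −0.070 in controls, without overlap, and the median change was 0.091. The size also depended on the scaling: the median was 0.070 with columns scaled to equal totals and 0.071 after quantile normalization.

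**Figure D5:**
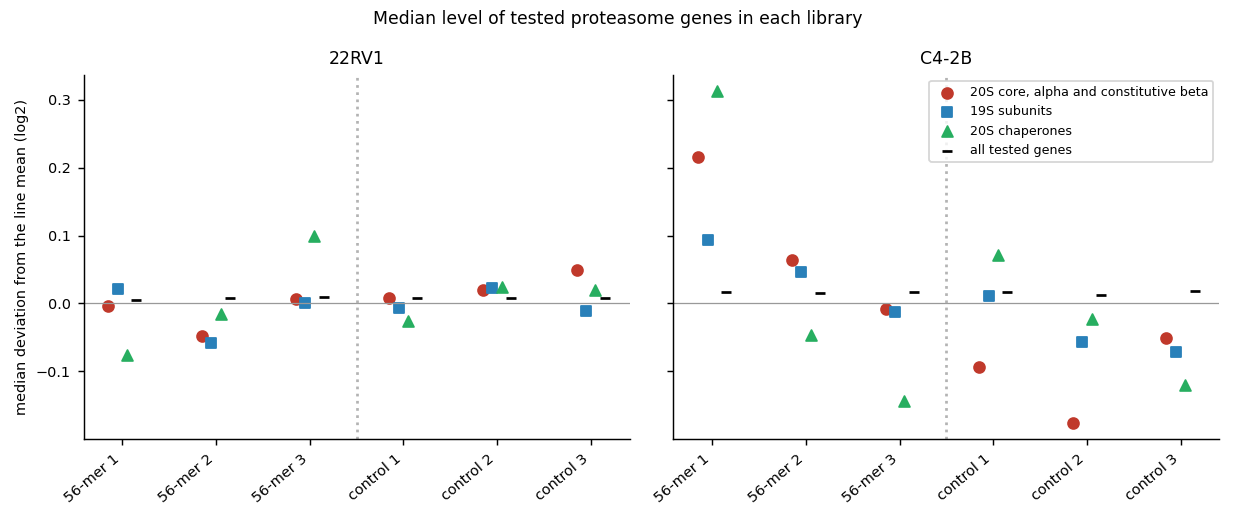
Median log2 deviation from the mean of the 6 libraries of each line for the 14 standard 20S core subunits (red circles), the 17 subunits of the 19S cap (blue squares), the 4 chaperones of the 20S core (green triangles) and all tested genes (dashes), in each library of 22RV1 (left) and C4-2B (right). In C4-2B the core median is 0.216 in 56-mer 1, 0.064 in 56-mer 2 and −0.0080 in 56-mer 3, above the 3 controls (−0.093, −0.175 and −0.051), while in 22RV1 the core and cap medians of both groups lie between −0.059 and 0.050.

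Summed over the 48 genes, C4-2B libraries held 5695, 5397 and 5225 RPM of proteasome reads with 56-mer, against 5196, 5015 and 5115 in controls, which is 5439 ± 238 and 5109 ± 90.5 (SD, n = 3 each). The lowest sum with 56-mer lay above the highest control by less than the spread of either group. The 14 standard core subunits summed to 2000 ± 119 with 56-mer and 1820 ± 66.1 in controls, the 6 ATPases to 1043 ± 24 and 962 ± 28.0, the 8 lid subunits to 1033 ± 35.6 and 1001 ± 23.4, and the 4 activators to 378 ± 23.5 and 368 ± 9.17, with the 56-mer libraries named before the controls in each pair. In bulk RNA a change in the level per cell and in the mixture of cells cannot be told apart.

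In 22RV1 most members had a lower mean with 56-mer, and no member passed the test. Of the 46 members 14 had a higher mean with 56-mer and 32 a lower one, with a median log2 change of −0.024, where 49.4% of all genes were higher and their median was −0.0026. The limma test called 0 of 46 members, against 0.00975% of the 20517 genes tested. At an unadjusted p under 0.05 there were 3 members, all lower, against 2.15% of all genes lower at that p, and edgeR, DESeq2 and limma-voom gave 0 called and 3 under 0.05 each. In 4 members, PSMB1, PSMB10, PSMD9 and PSMG2, all 3 libraries with 56-mer lay below the controls, and in none above, where 4.58% and 4.45% of all genes did so.

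PSMG2, a chaperone that starts the assembly of the alpha ring, had 315, 242 and 303 normalized read counts with 56-mer, against 362, 395 and 357 in 22RV1 controls. The groups did not overlap, and the log2 change was −0.38 ± 0.14 (SE, unadjusted p = 0.0089, limma adjusted p = 0.9996). PSMD9, a chaperone of the 19S base, had 93.7, 107 and 106 with 56-mer, against 147, 133 and 152 in controls, a log2 change of −0.49 ± 0.21 (adjusted p = 0.9996), and it is one of the 5 overlapped genes. The third by p was PSMB10, described with the immunoproteasome.

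The 14 standard core subunits of 22RV1 had changes between −0.48 and 0.063, and the 17 cap subunits between −0.083 and 0.074. The lowest core values were those of overlapped genes, PSMA6 at −0.48 (95% interval −1.21 to 0.24) and PSMA2 at −0.26 (−0.75 to 0.24). PSMB5 had 1316, 1343 and 1487 with 56-mer, against 1401, 1324 and 1475 in controls (log2 change −0.019, 95% interval −0.19 to 0.15). PSMB6 had 604, 698 and 584 with 56-mer, against 621, 672 and 669 (−0.060, −0.28 to 0.16), and PSMB7 794, 930 and 905, against 904, 897 and 947 (−0.066, −0.26 to 0.13). All 3 overlapped. PSMB1, the only core subunit without overlap, had 1059, 1104 and 1067 with 56-mer, against 1145, 1141 and 1110 in controls, a log2 change of −0.073 (adjusted p = 0.9996). Among the 39 members other than the 5 overlapped genes, PSMB8 and PSMB9, the changes ran between −0.38 and 0.12 in 22RV1 and between −0.18 and 0.32 in C4-2B.

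For the cap and the activators of 22RV1, PSMD4 had 1436, 1558 and 1555 with 56-mer, against 1606, 1583 and 1522 in controls (−0.051, −0.21 to 0.11), and PSMD14 461, 432 and 458, against 442, 538 and 422 (−0.046, −0.29 to 0.20). PSME1 had 1001, 955 and 1049 with 56-mer, against 1015, 1037 and 1023 (−0.034, −0.22 to 0.15), and PSME2 363, 383 and 332, against 372, 383 and 407 (−0.11, −0.37 to 0.15). These groups overlapped. So did PSME3, at 1748, 1733 and 1803 against 1790, 1874 and 1699 (−0.021, −0.18 to 0.14), PSME4, at 1971, 1856 and 1467 against 1704, 1819 and 1540 (0.056, −0.12 to 0.24), and PSMF1, at 1227, 1298 and 1299 against 1247, 1202 and 1387 (−0.0021, −0.18 to 0.17). The 48 genes summed to 3672 ± 37.9 RPM with 56-mer and 3760 ± 19.2 in controls, without overlap, but on the authors' scale the sums overlapped, at 45114, 43884 and 44473 normalized read counts with 56-mer against 44769, 45386 and 44965 in controls.

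The immunoproteasome subunits were at the low end in both lines. In 22RV1 PSMB8 had 17.8, 12.3 and 4.42 normalized read counts with 56-mer, against 20, 13.2 and 20.2 in controls, and PSMB9 had 35.7, 56.0 and 25.6, against 18, 19.3 and 36.1. Both overlapped, with log2 changes of −0.74 (95% interval −2.01 to 0.53) and 0.65 (−0.19 to 1.49). PSMB10 had 24.1, 30.1 and 39.8 with 56-mer, against 53.0, 54.8 and 58.1 in controls, without overlap; its log2 change was −0.83 ± 0.34 (unadjusted p = 0.0197, limma adjusted p = 0.9996). PSMB10 is one of the 5 overlapped genes. The gene that shares its coding bases, AC040162.1, was itself counted at 38.4 to 65.0 per library in 22RV1 and 12.7 to 24.6 in C4-2B. The promoter window of PSMB10 given above holds an interferon-stimulated core, on the strand opposite to the gene, 21 bases before the start.

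In C4-2B PSMB8 had 28.4, 2.86 and 20.5 with 56-mer, against 4.28, 11.4 and 0.847 in controls, PSMB9 17.7, 0 and 10.7, against 12.8, 18.2 and 19.5, and PSMB10 19.6, 17.2 and 26.3, against 20.3, 14.8 and 28.8. All 3 overlapped. Their log2 changes were 1.44 (95% interval −0.95 to 3.84), −1.55 (−3.72 to 0.63) and 0.0075 (−1.21 to 1.22). Per 100 reads of the constitutive counterpart, PSMB10 stood at 3.03, 3.23 and 4.39 reads of PSMB7 in 22RV1 with 56-mer, against 5.86, 6.11 and 6.13 in controls. In C4-2B the same ratio was 0.896, 0.914 and 1.37 with 56-mer, against 1.16, 0.857 and 1.69. The highest library had 1.54 reads of PSMB8 per 100 of PSMB5 (C4-2B with 56-mer) and 8.02 of PSMB9 per 100 of PSMB6 (22RV1 with 56-mer).

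The change in 22RV1 was set against the change in C4-2B in 1 limma fit of the 12 libraries over 15527 genes. The difference, 22RV1 minus C4-2B, was negative in 39 of the 46 members, with a median of −0.142, where 48.2% of all genes were negative and their median was 0.013. No member passed (0 of 46, against 0% of all genes), 8 had an unadjusted p under 0.05, all negative, against 3.75% of all genes negative at that p, and edgeR, limma-voom and DESeq2 gave 0 called with 8, 9 and 10 under 0.05. The smallest p belonged to PSMB1, with a difference of −0.39 ± 0.13 (SE, adjusted p = 0.542) from changes of −0.073 in 22RV1 and 0.32 in C4-2B. PSMC4 followed with −0.36 ± 0.12 (adjusted p = 0.546) from −0.078 and 0.28, and PSMB3 with −0.37 ± 0.13 (adjusted p = 0.546) from −0.10 and 0.26. In 22RV1 PSMC4 had 1092, 997 and 1025 normalized read counts with 56-mer, against 1109, 1040 and 1139 in controls, and PSMB3 had 800.3, 652 and 772, against 823, 706 and 861. Both overlapped in 22RV1. A difference between the lines in the response to 56-mer was not detectable for any single member with these libraries.

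Other genes of the pathway, from lists written with earlier results known, gave 0 called genes in either direction in both lines, where the test called 0.00975% of all genes in 22RV1 and 0.066% in C4-2B. Of 11 proteasome genes without a PSM symbol, 8 had a higher mean in C4-2B, where 48.3% of all genes did, with a median log2 change of 0.105. Of these 11 genes 3 had an unadjusted p under 0.05, against 4.89% of all genes higher at that p. ADRM1, a ubiquitin receptor of the cap, had a change of 0.22 (adjusted p = 0.453), the small cap subunit SEM1 0.25 and POMP, the chaperone that completes the core, 0.18 (adjusted p = 0.543 each). ADRM1 had 2653, 2744 and 2708 normalized read counts with 56-mer, against 2200, 2402 and 2359 in controls, without overlap. ECPAS was also higher without overlap and UBE3C lower without overlap, where 7.59% and 7.08% of all genes were. In 22RV1 the median of this list was 0.019, and ECPAS, which binds the 26S proteasome, had the smallest p, with a change of 0.088 (adjusted p = 0.9996).

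The ubiquitin genes had the highest list median in C4-2B. Of the 4 ubiquitin genes and 2 activating enzymes, 5 had a higher mean (48.3% of all genes), with a median of 0.177, and 4 had an unadjusted p under 0.05 (all genes higher at that p, 4.89%). UBB, a stress-inducible ubiquitin gene, had 12061, 11740 and 11682 normalized read counts with 56-mer, against 10130, 9930 and 9928 in controls. These groups did not overlap and gave a log2 change of 0.24 ± 0.057 that did not pass (adjusted p = 0.169). In 22RV1 the same list had a median of −0.017, and RPS27A, which encodes ubiquitin fused to a ribosomal protein, had the smallest p, with a change of −0.12 (adjusted p = 0.9996).

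Of the genes around NFE2L1, about equally many were higher and lower. The median log2 change of its 11 genes was 0.0095 in 22RV1 and −0.151 in C4-2B, with 6 of 11 higher in 22RV1 and 5 of 11 in C4-2B. NFE2L1 itself had 2968, 3587 and 3889 normalized read counts with 56-mer in C4-2B, against 3136, 3624 and 3420 in controls, so its groups overlapped (change 0.030, 95% interval −0.16 to 0.22). By unadjusted p the leading genes were NGLY1 in 22RV1 (0.23, adjusted p = 0.9996) and SEL1L in C4-2B (−0.26, adjusted p = 0.585). Members with the antioxidant response element core in their window had a median change of 0.064 in C4-2B (n = 13). For members with a window that lacks the core it was 0.109 (n = 27). In 22RV1 these medians were −0.034 and −0.017. PSMA7, PSMB1, PSMB6, PSMB7, PSMD4 and PSMG3 had no window and are in neither group. Their C4-2B changes were, in that order, 0.049, 0.32, 0.30, 0.20, 0.15 and 0.30. Whether the core bears on the change was not tested.

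Among 12 p97 and shuttle factors, which deliver ubiquitylated proteins to the proteasome, the medians were 0.014 in 22RV1 and −0.042 in C4-2B, led by FAF1 in 22RV1 (−0.20, adjusted p = 0.9996) and UBQLN1 in C4-2B (−0.22, adjusted p = 0.580). The interferon regulators and antigen transport genes had medians of −0.0036 in 22RV1 and −0.057 in C4-2B. Of the 11 tested in 22RV1, 5 were higher and 6 lower, where 49.4% of all genes were higher. Of the 10 tested in C4-2B, 1 was higher and 9 were lower, where 48.3% of all genes were higher. The smallest p of this list belonged to STAT2 in 22RV1 (−0.12, adjusted p = 0.9996) and ERAP2 in C4-2B (−0.82, adjusted p = 0.788).

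The authors' deposited tables list the same 46 members in each line. In the authors' deposited table of 22RV1, 3 had an unadjusted p under 0.05, against 2.07% of the genes listed. In the authors' deposited table of C4-2B, 10 did, against 5% of the genes listed. The adjusted values of the authors' deposited tables are not the Benjamini-Hochberg values of the p-values listed beside them, so they are not counted here. The median deposited log2 changes, in the authors' deposited tables, were −0.019 in 22RV1 and 0.116 in C4-2B.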

How the data were processed

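The data are bulk RNA-seq of 12 libraries from 2 cell lines in 4 groups of 3. The authors deposited, per line, a table of normalized signal per gene (read counts divided by 1 size factor per library) and a comparison table which, per the file headers, gives log2 fold changes with standard errors, a Wald score and p-values. DESeq is named without a version, per the submitters' processing notes; for the aligner, counting tool, strand setting, build and annotation the entry is "not given in the sources used here". Every nonzero value was a whole multiple of 1 step per library within 0.01 (100% of values), so whole reads were recovered (size factors 0.732 to 1.18). The tables hold 60315 entries, and 1 without a symbol was left out.

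Within each line, log2 of the normalized count plus 1 was fitted with limma 3.58.1 in R 4.3.3 (trend and robust variance, 56-mer minus control, two-sided) for genes with at least 10 in at least 3 of 6 libraries, with Benjamini-Hochberg adjustment over all tested genes and a threshold of 0.05. The difference between lines was a contrast in 1 fit of the 12 libraries. Control levels across lines were described as reads per 1000000 recovered reads (RPM), with no test, and levels between genes per kilobase of GENCODE 29 exon. Errors are SD for means and SE for log2 changes, and intervals are 95% confidence intervals. GC content and length were available for 95.3% of tested genes in 22RV1 and 95.9% in C4-2B. The scripts were tested on simulated data. On the recovered reads, limma-voom, edgeR 4.0.16 and DESeq2 1.42.0 were alternatives, as were other scalings, filters, pseudocounts and leaving out each library.

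The members and all lists were chosen with earlier results of these data known. Named with values in every library were the catalytic, immunoproteasome, tissue-restricted and activator genes, PSMF1, PSMD4, PSMD14, and the 3 members with the smallest unadjusted p per comparison. In control levels, members past a ratio of 2 were named with their control libraries, and extremes per length with their means, not for every class. In other lists the gene with the smallest p was named. Other genes were named after their values were seen.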

Additional observations from a re-analysis of the deposited data

How the results depend on the processing

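The number of called proteasome genes was 0 under each alternative run in 22RV1, in C4-2B and in the difference between lines. These were pseudocounts of 0.1 and 10, quantile normalization, equal totals, a filter at a mean of 50, no filter, a GC and length correction, no trend or robust variance, a spread shared by the 12 libraries (within lines), limma-voom, edgeR, DESeq2, a threshold of 0.01 and leaving out each library (range 0 to 0). The median log2 change ran from −0.0455 to −0.00758 in 22RV1 and from 0.0552 to 0.153 in C4-2B over the libraries left out. The ends were set by leaving out 56-mer 3 (−0.0455) and 56-mer 2 (−0.00758) in 22RV1, and 56-mer 1 (0.0552) and 56-mer 3 (0.153) in C4-2B; the cause was not tested. Without the 5 overlapped genes, a setting chosen after seeing the data, the medians were −0.0191 and 0.116. The count of members past a control ratio of 2 ran from 13 to 15 over the libraries left out, was 14 on the deposited values, 24 at a ratio of at least 1.5 (against 61.8% of all genes; the limit itself is lower) and 9 after the GC and length correction of the ratio, also chosen after seeing the data. Of 603 alternative values for the 33 named changes, 30 had the other sign, in 11 results whose change was at most 0.0664 in size, and none gained a call (lowest adjusted p 0.0522). No paired analysis was possible because no replicate number, batch or day in the labels links libraries of different groups. With 3 libraries per group and 8847368 to 13740386 reads each, no member passed the adjusted threshold. Some 95% intervals in C4-2B excluded 0, such as that of PSMC5 (0.11 to 0.43). These intervals are not adjusted for the number of genes tested. Sizes of change inside the interval of a gene could not be told apart. The intervals were wider for PSMB8, PSMB9 and PSMB10 in C4-2B than for the abundant subunits.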
